A study of Mus musculus with 12 samples.

Results

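The genes described here are 39 members of the BMP, activin and TGF-beta pathway in the fetal mouse testis. They were chosen by name, with earlier results of these data known. They comprise 12 ligands and inhibin subunits, 12 receptors, 7 SMAD proteins, 5 antagonists and 3 ID genes. Each probe set that the platform annotation assigns to 1 of these genes alone was taken. This gave 85 probe sets among the 34945 non-control probe sets that name a single gene. Expression was measured in testes at E15.5 of gestation on 12 Affymetrix arrays in 4 groups of 3, which were Dmrt1 knockout 129Sv, wild-type 129Sv, Dmrt1 knockout B6 and wild-type B6. Dmrt1 encodes a DM-domain transcription factor of germ cells and Sertoli cells. Sample descriptions call the mutants dmrt1 and carry no Cre line, while the study's design calls the loss of Dmrt1 conditional, and no source used here names the driver or the deleted exons. The dissection notes state P28, a stage other than that of the descriptions, which were followed. The titles of 11 of the 12 arrays open with a code that differs from array to array, whose meaning is not given, and no source used here states whether the 3 arrays of a group came from different animals. The p-values therefore describe the spread among arrays, which may be technical.

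Ligands of this family bind pairs of type I and type II receptor kinases on the cell surface, and the type I receptor phosphorylates receptor-regulated SMADs. SMAD1 and SMAD5 carry BMP signals, SMAD2 and SMAD3 carry activin and TGF-beta signals, and both classes enter the nucleus with the shared partner SMAD4. SMAD6 and SMAD7 block the cascade, secreted antagonists such as noggin, gremlin, chordin and follistatin bind ligands, and the ID genes are direct targets of BMP signals. In the fetal testis the family is known for anti-Müllerian hormone, which Sertoli cells secrete and AMHR2 receives, for the inhibin and activin subunits of Sertoli and Leydig cells, and for activin and NODAL signals that reach germ cells.

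Promoter sequences are shown for 4 members whose signals differed between the groups, since SMAD proteins and DM-domain factors act through short motifs near their targets. RefSeq windows of 300 bases in GRCm38.p6, from 250 bases before to 50 bases after the gene's start, were found for 27 of the 39 members and gave 32 windows, and Id1, Bmp7 and Acvrl1 had none in the table used. Capitals mark CAGAC or its complement GTCTG (the SMAD-binding element), GGCGCC (a GC-rich motif bound by BMP-regulated SMADs) and ACANTGT (the core bound by DM-domain factors), all searched on both strands. No match of one motif overlapped another in these 4 windows.
Id3, chr4:136143572-136143871, plus strand: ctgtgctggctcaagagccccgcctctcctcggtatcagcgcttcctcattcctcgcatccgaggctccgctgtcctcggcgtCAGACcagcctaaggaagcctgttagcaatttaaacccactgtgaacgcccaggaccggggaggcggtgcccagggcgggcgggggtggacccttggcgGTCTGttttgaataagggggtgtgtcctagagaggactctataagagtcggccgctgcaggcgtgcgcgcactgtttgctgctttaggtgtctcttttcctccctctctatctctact
Id2, chr12:25096043-25096342, minus strand: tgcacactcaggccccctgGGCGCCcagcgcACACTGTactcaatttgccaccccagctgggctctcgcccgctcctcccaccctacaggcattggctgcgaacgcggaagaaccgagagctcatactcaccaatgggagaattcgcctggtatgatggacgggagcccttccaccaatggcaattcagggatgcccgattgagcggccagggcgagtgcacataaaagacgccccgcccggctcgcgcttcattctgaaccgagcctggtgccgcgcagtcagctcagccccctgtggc
Smad6, chr9:64022010-64022309, minus strand: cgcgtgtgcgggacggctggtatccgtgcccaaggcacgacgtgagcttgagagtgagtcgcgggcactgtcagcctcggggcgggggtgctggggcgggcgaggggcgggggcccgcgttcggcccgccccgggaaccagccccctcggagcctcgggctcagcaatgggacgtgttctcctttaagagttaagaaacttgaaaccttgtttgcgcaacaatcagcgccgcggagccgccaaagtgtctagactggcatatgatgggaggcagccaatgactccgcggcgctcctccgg
Amhr2, chr15:102445117-102445416, plus strand: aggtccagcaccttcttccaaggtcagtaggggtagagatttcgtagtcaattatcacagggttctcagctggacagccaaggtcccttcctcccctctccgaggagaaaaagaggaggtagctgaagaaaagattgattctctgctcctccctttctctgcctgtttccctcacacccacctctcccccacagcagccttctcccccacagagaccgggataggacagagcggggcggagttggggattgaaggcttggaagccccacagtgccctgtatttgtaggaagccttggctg
The Id3 window held CAGAC at 167 and, on the other strand, at 68 bases before the start. The Id2 window held GGCGCC at 231 and ACANTGT at 219 bases before the start. The Smad6 and Amhr2 windows held no match of the 3 motifs. Among the 32 member windows 16 held CAGAC, 9 held GGCGCC and 1 held ACANTGT, and the same motifs were present in 49.6%, 11.9% and 7.54% of all 32851 windows in the table. Overlapping windows of Smad5 hold the same GGCGCC site, which is therefore counted more than once among the 9.

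Of the 85 probe sets, 63 from 35 genes reached an intensity of 16 on at least 3 arrays and were tested. The other 22 read between 2.73 and 15.71 on every array, and Bmp8a, Bmp8b, Nog and Grem1 had no tested probe set. All tests come from 1 limma model over 21900 probe sets with Benjamini-Hochberg adjustment over all of them, and a change was called at an adjusted p under 0.05. Differences are on the log2 scale of intensity, as knockout minus wild type or 129Sv minus B6, with the standard error.

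Dmrt1 fell in the knockouts of both strains. It read 173, 145 and 181 in 129Sv knockouts, against 1183, 924 and 1014 in 129Sv wild types (-2.64 ± 0.17, adjusted p = 1.78e-06). In B6 it read 86.4, 64.0 and 72.9 in knockouts, against 795, 1092 and 1066 in wild types (-3.72 ± 0.17, adjusted p = 1.23e-07). Actb has probe sets near both transcript ends, and their 3′ over 5′ ratio, a measure of RNA integrity, was 6.30 on B6 knockout replicate 3 and 5.24 on 129Sv knockout replicate 1, and at most 3.91 on the other arrays. A number before the strain code in the titles, whose meaning is not given, is 11 for 129Sv wild-type replicates 1 and 3 and 7 for the other 129Sv arrays, so in 129Sv it nearly follows genotype. The titles also end in a number of unstated meaning that is 1 to 3 for B6 knockouts, 4 to 6 for B6 wild types and 7 to 12 for 129Sv arrays. Neither strain nor, in B6, genotype can be told apart from it. The number in the opening code is shared by B6 knockout and wild-type replicate 1 and by B6 knockout and wild-type replicate 2, and a fit with this number as a random block is given where it changed a call.

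These are bulk testes, so fewer cells of a type and less RNA per cell cannot be told apart, and marker sums are given for that reason. Of 5 germ cell markers, 3 fell in B6 knockouts and none was called in 129Sv knockouts. Their summed intensity was 13620 to 18094 in 129Sv knockouts and 15432 to 17089 in 129Sv wild types, and 5760 to 9194 in B6 knockouts and 12619 to 13693 in B6 wild types. The sum of 6 Sertoli markers was 7641 to 8088 in 129Sv knockouts and 10388 to 11375 in 129Sv wild types, and 7586 to 8235 in B6 knockouts and 10576 to 11482 in B6 wild types, with 1 and 2 of the 6 called as fallen in the 129Sv and the B6 knockout. No endothelial, fetal Leydig, or interstitial and peritubular marker was called for the knockout in either strain. The 5 endothelial markers summed to 708.7 to 961.7 in 129Sv knockouts and 1016 to 1073 in 129Sv wild types, and to 1206 to 1317 in B6 knockouts and 1117 to 1218 in B6 wild types. Each marker of these 5 lists exceeded an intensity of 16 on at least 1 array. Among smaller lists, 1 mesonephros marker fell in 129Sv knockouts, 1 leukocyte and 1 red blood cell marker were lower in 129Sv than in B6 knockouts, and 1 adrenal marker was higher in 129Sv than in B6 wild types. The part of these markers in the results below was not tested.

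Few members were called for the knockout within either strain. In 129Sv, 2 of 63 member probe sets rose (Bmp7 and Id3) and 1 fell (Tgfb1), and 5.74% of all tested probe sets were called (3% higher and 2.74% lower). In B6, 3 rose, all of them for Amhr2, and none fell, against 5.02% of all probe sets called (1.24% higher and 3.78% lower). Members were therefore called about as often as probe sets in general, at 4.76% in each strain. The median member difference was 0.03 in 129Sv and 0.00 in B6, and over all tested probe sets it was 0.00 in each.

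The average of the 2 knockout effects uses both strains, and 9 member probe sets rose and 2 fell. Those that rose belong to Bmp4, Bmp7, Acvr1, Amhr2 (3 probe sets), Smad6, Id1 and Id3, and those that fell to Tgfb1 and Acvrl1. This is 17.5% of the member probe sets, where 10.5% of all tested probe sets were called, and for the rises alone it is 9 of 63 where 4.17% of all rose and 6.32% fell. The difference of the knockout effects, 129Sv minus B6, was called for no member by limma, where 0.333% of all probe sets were called. At an unadjusted limma p under 0.05 were 7 of 63 member probe sets and 3025 of all 21900 tested. No member's response to the knockout was therefore shown to differ between the strains. The plot of knockout effects by role sets the 2 strains side by side.

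**Figure D1:**
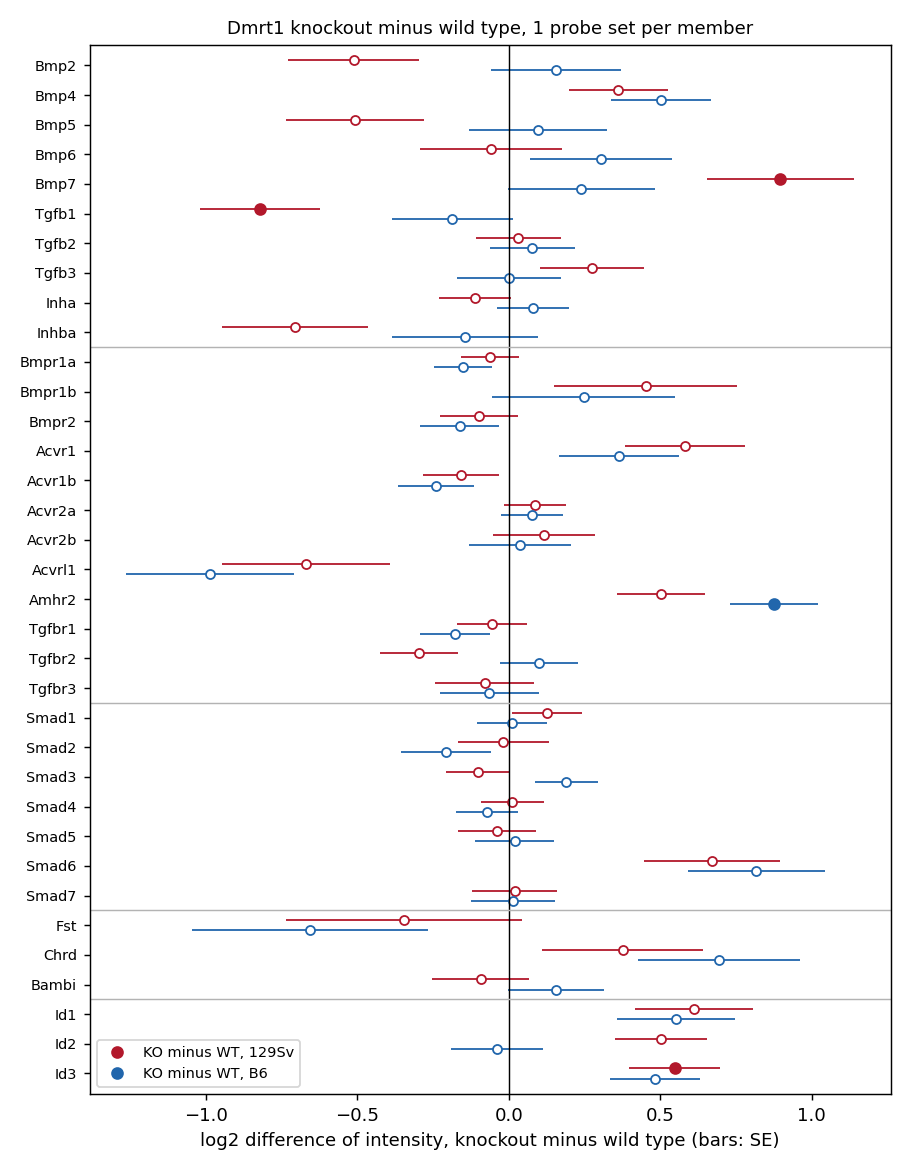
Difference of log2 intensity, knockout minus wild type, for the probe set with the highest mean of each of the 35 tested members, in 129Sv (red) and B6 (blue), with standard errors as bars. Grey lines part ligands, receptors, SMADs, antagonists and ID genes from top to bottom, and filled points passed the adjusted threshold in that strain: Bmp7, Tgfb1 and Id3 in 129Sv and Amhr2 in B6.

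More probe sets were called between strains than for the knockout, among the members and over all probe sets alike. Between wild types, 4 member probe sets were higher in 129Sv than in B6 (2 for Bmp7, 1 each for Bmp5 and Tgfb1) and 11 were lower, where 14.1% of all tested probe sets were called and 23.8% of the members were (8.97% of all were higher). The lower ones belong to Tgfb2 (3), Tgfb3, Bmpr1a, Acvr1, Acvrl1, Id1, Id2 (2) and Id3, and 5.16% of all probe sets were lower in 129Sv. Between knockouts, 2 member probe sets were higher in 129Sv, both for Bmp7, and 16 were lower. These are 28.6% of the member probe sets, a share near the 30.8% of all probe sets that were called (18.6% higher and 12.2% lower). The lower ones belong to Tgfb2 (2), Inha, Bmpr1a, Acvrl1 (2), Amhr2 (3), Smad1, Smad3, Smad5, Smad6, Smad7, Id1 and Id3. The median member difference between strains was -0.22 in wild types and -0.23 in knockouts, against 0.03 and 0.04 over all tested probe sets. Of the 18 calls between knockouts, 6 were lost without both arrays of the highest Actb ratio (Inha, Acvrl1 probe set 1451604_a_at, 2 for Amhr2, Smad3 and Smad7) and 7 in a fit of the knockout arrays alone (Tgfb2 probe set 1450922_a_at, Acvrl1 probe set 1451604_a_at, 2 for Amhr2, Smad3, Smad5 and Smad7). Of the 15 calls between wild types, 6 were lost with a title number of 11 as a covariate (Tgfb1, Tgfb2 probe set 1450922_a_at, Tgfb3, Bmp5, Acvr1 and Id1, adjusted p 0.0872 to 0.296).

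Cell type markers also differed between the knockouts of the 2 strains. All 5 germ cell markers were higher in 129Sv knockouts than in B6 knockouts, and 3 of 4 fetal Leydig and 3 of 5 endothelial markers were lower. Also lower were 1 of 6 Sertoli, 1 of 5 interstitial and peritubular and 1 of 2 mesonephros markers. The Leydig sum was 13693 to 15421 in 129Sv knockouts and 18408 to 25111 in B6 knockouts. Between the wild types, 1 germ cell marker was called as higher in 129Sv and no Sertoli, Leydig, interstitial or endothelial marker was called. Probes were not compared with sequence variants of the strains, so their part in a strain difference was not tested.

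**Figure D2:**
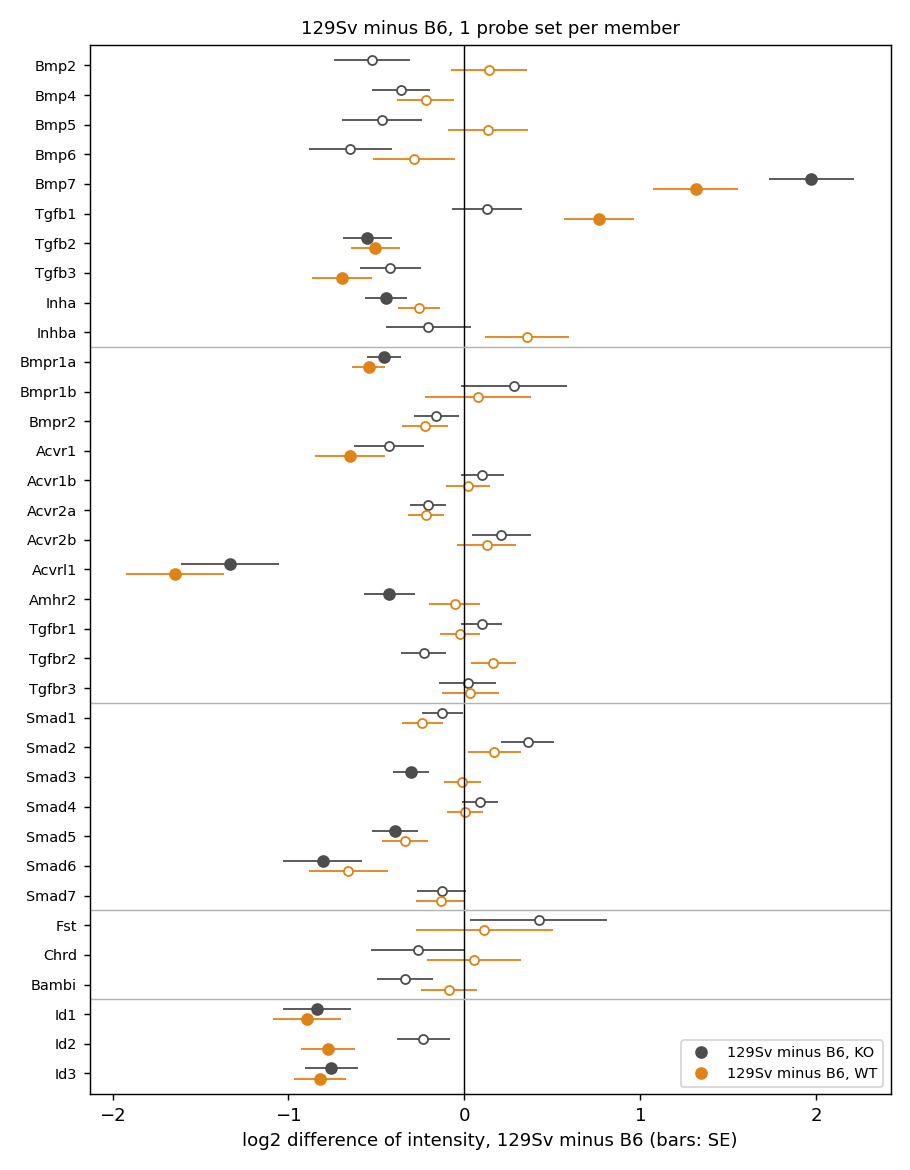
Difference of log2 intensity, 129Sv minus B6, for the same 35 probe sets, among knockouts (dark grey) and among wild types (orange), with standard errors as bars and filled points for those that passed the adjusted threshold. Bmp7 lies to the right in both genotypes, and Acvrl1, Bmpr1a, Tgfb2, Id1 and Id3 lie to the left in both.

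Among the 16 ligand and inhibin subunit probe sets, 1 for Bmp7 rose and 1 for Tgfb1 fell in the 129Sv knockout, and none was called in the B6 knockout. Bmp7, a BMP ligand of kidney, eye and gonad development, has 2 tested probe sets. Probe set 1435479_at read 436, 200.4 and 241 in 129Sv knockouts and 131, 169.8 and 147 in 129Sv wild types. It read 74.9, 76.5 and 61.0 in B6 knockouts and 58.2, 59.6 and 61.1 in B6 wild types. All 129Sv knockout arrays lay above all 129Sv wild-type arrays, and the groups of B6 overlapped. The 129Sv knockout rise was 0.90 ± 0.24 (adjusted p = 0.0452), against 0.24 ± 0.24 in B6 (adjusted p = 0.576), and the difference of these effects did not pass (0.66 ± 0.34, adjusted p = 0.413). The rise was lost without any one of 10 arrays, with values from 0.57 to 1.00 and adjusted p from 0.0528 to 0.178, and was kept only without 129Sv knockout replicate 2 or B6 knockout replicate 3. Without the 2 arrays of the highest Actb ratio, one of which holds the highest reading, it was 0.57 (adjusted p = 0.0735).

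The strain difference of Bmp7 had its 129Sv arrays above the B6 arrays in both genotypes. It was 1.97 ± 0.24 between knockouts (3.92-fold, adjusted p = 6.54e-05) and 1.31 ± 0.24 between wild types (2.49-fold, adjusted p = 0.00297). The second probe set, 1418910_at, read 100.1, 74.1 and 87.0 in 129Sv knockouts, 54.8, 66.6 and 53.5 in 129Sv wild types, 39.7, 40.1 and 33.7 in B6 knockouts and 27.6, 33.7 and 31.5 in B6 wild types. Its strain differences were 1.20 ± 0.18 between knockouts (adjusted p = 0.000378) and 0.91 ± 0.18 between wild types (adjusted p = 0.00536). These 4 strain calls held with each array left out in turn. On the same probe set the average knockout effect rose by 0.43 ± 0.13 (adjusted p = 0.0491), a call lost without any one of 9 arrays (adjusted p 0.0563 to 0.135) and kept only without 129Sv knockout replicate 2, 129Sv wild-type replicate 2 or B6 knockout replicate 3.

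Tgfb1, the TGF-beta ligand best known for restraining growth and inflammation, was lower in the 129Sv knockout. Its probe set 1420653_at read 43.4, 46.5 and 55.0 in 129Sv knockouts and 83.3, 90.3 and 81.3 in 129Sv wild types, groups that did not overlap. In B6 the readings were 35.9, 42.6 and 55.5 in knockouts and 51.8, 56.6 and 42.6 in wild types, which overlapped. It fell by 0.82 on the log2 scale in 129Sv (-0.82 ± 0.20, adjusted p = 0.0264), with -0.19 ± 0.20 in B6 (adjusted p = 0.597), and the difference of effects did not pass (-0.63 ± 0.28, adjusted p = 0.344). Between wild types it was higher in 129Sv than in B6 (0.76 ± 0.20, adjusted p = 0.0211), and between knockouts the difference was 0.13 ± 0.20. Each of these 2 calls was lost without any one of 5 arrays. For the 129Sv knockout these were knockout replicates 1 and 2 and the 3 wild types (-0.85 to -0.75, adjusted p 0.0834 to 0.110), and for the strain they were the 3 129Sv wild types and B6 wild-type replicates 1 and 3 (0.65 to 0.80, adjusted p 0.0562 to 0.0863). Over both strains the fall was -0.50 ± 0.14 (adjusted p = 0.0352), and it was lost without any array except 129Sv knockout replicate 3, B6 knockout replicate 3 and B6 wild-type replicate 3 (adjusted p 0.0673 to 0.0937).

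Bmp4, a BMP ligand needed for the founding of the germline, read 113, 122 and 110.2 in 129Sv knockouts and 83.8, 85.7 and 100.05 in 129Sv wild types. It read 137, 133 and 177 in B6 knockouts and 102, 102 and 109.5 in B6 wild types. Knockout arrays lay above wild-type arrays in each strain, and neither strain passed alone (0.36 ± 0.16, adjusted p = 0.257 in 129Sv, and 0.50 ± 0.16, adjusted p = 0.0951 in B6). The average effect rose by 0.43 ± 0.12 (adjusted p = 0.0283). That call was lost without 129Sv knockout replicate 1 or 2, 129Sv wild-type replicate 1 or 2, or any B6 wild type (0.41 to 0.45, adjusted p 0.0546 to 0.0814), and without both arrays of the highest Actb ratio (0.37, adjusted p = 0.0571).

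Tgfb2 and Tgfb3, the other TGF-beta ligands, were lower in 129Sv than in B6 and were called for the knockout in no comparison. Tgfb2 probe set 1450923_at read 1214, 1101 and 1056 in 129Sv knockouts, 1311, 871 and 1156 in 129Sv wild types, 1546, 1629.6 and 1765 in B6 knockouts and 1445, 1713 and 1527 in B6 wild types. Every 129Sv array lay below every B6 array. The strain difference was -0.55 ± 0.14 between knockouts (adjusted p = 0.00946), held with each array left out, and -0.51 ± 0.14 between wild types (adjusted p = 0.0279), lost without 129Sv wild-type replicate 2 or 3 or any B6 wild type (-0.56 to -0.34, adjusted p 0.0518 to 0.125).

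A second Tgfb2 probe set, 1450922_a_at, read 500.4, 425 and 419 in 129Sv knockouts, 345, 459 and 438 in 129Sv wild types, 688, 539 and 568 in B6 knockouts and 599, 621 and 548 in B6 wild types. It was lower in 129Sv by the test in both genotypes, at -0.41 ± 0.15 between knockouts (adjusted p = 0.0490) and -0.52 ± 0.15 between wild types (adjusted p = 0.0336). The call between knockouts was kept only without 129Sv knockout replicate 1 or 129Sv wild-type replicate 1 or 2 (otherwise adjusted p 0.0522 to 0.163). Between wild types it was lost without 129Sv wild-type replicate 1 or 3 or B6 wild-type replicate 1 or 2 (adjusted p 0.0646 to 0.133). The third, 1423250_a_at, read 201, 118 and 210.4 in 129Sv wild types and 317, 460.3 and 322 in B6 wild types (-1.08 ± 0.28, adjusted p = 0.0213), a call lost without replicate 2 of either group (-0.90 and -0.81, adjusted p 0.0884 to 0.111). In knockouts it read 141, 235 and 168 in 129Sv and 379.7, 294 and 201 in B6, which overlapped. The fourth Tgfb2 probe set did not pass in either genotype (adjusted p = 0.142 and 0.0520).

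Tgfb3 (1417455_at) read 302, 332 and 311 in 129Sv knockouts, 237, 256 and 289 in 129Sv wild types, 397, 414 and 455 in B6 knockouts and 389.8, 558 and 343 in B6 wild types. The strain difference passed between wild types (-0.69 ± 0.17, adjusted p = 0.0161) and not between knockouts (-0.42 ± 0.17, adjusted p = 0.0781). The wild-type call was lost without 129Sv wild-type replicate 1 or 2 or B6 wild-type replicate 2 (-0.68 to -0.49, adjusted p 0.0572 to 0.0622). Bmp5, a ligand of skeletal development, has 3 tested probe sets. Its probe set 1421282_at read 37.9, 30.9 and 29.4 in 129Sv wild types and 22.3, 22.4 and 16.4 in B6 wild types, higher in 129Sv (0.69 ± 0.20, adjusted p = 0.0383). Knockouts read 20.0, 23.0 and 26.6 in 129Sv and 18.8, 18.9 and 15.48 in B6 (0.38 ± 0.20, adjusted p = 0.172). The other Bmp5 probe sets gave 0.24 and 0.13 between wild types and were not called, and the call of the first was lost without any one wild type of either strain (0.54 to 0.76, adjusted p 0.0542 to 0.140).

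Inha, the alpha subunit that turns an activin into an inhibin, read 1488, 1525 and 1645 in 129Sv knockouts, 1769, 1637 and 1621 in 129Sv wild types, 1821, 2123 and 2450.3 in B6 knockouts and 1765, 2081 and 2176 in B6 wild types. It was lower in 129Sv between knockouts (-0.45 ± 0.12, adjusted p = 0.0121), a call that held with each array left out and was lost without both arrays of the highest Actb ratio (-0.31, adjusted p = 0.0926). The knockout difference was -0.11 ± 0.12 in 129Sv and 0.08 ± 0.12 in B6. Inhba, the beta subunit of activin A, read 324, 238 and 252 in 129Sv knockouts and 519.9, 356 and 457 in 129Sv wild types. These groups did not overlap, yet the difference of -0.71 ± 0.24 did not pass (adjusted p = 0.117). Bmp2 and Bmp6, the remaining ligands, were called in no comparison.

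Among the 25 receptor probe sets from 12 genes, Amhr2 was the only gene called for the knockout within a strain, and Acvrl1 had the most negative strain differences. Amhr2, the type II receptor of anti-Müllerian hormone on Sertoli, Leydig and Müllerian duct mesenchyme cells, rose in B6 knockouts on each of its 3 probe sets. Probe set 1457021_x_at read 802, 630.3 and 757 in 129Sv knockouts and 501, 537 and 501 in 129Sv wild types. It read 916, 938 and 1086 in B6 knockouts and 592, 579 and 439.9 in B6 wild types. Knockout arrays lay above wild-type arrays in both strains on this and on both other probe sets. Probe set 1438967_x_at read 504, 378 and 494 in 129Sv knockouts, 295, 364 and 324 in 129Sv wild types, 606, 709 and 892 in B6 knockouts and 356, 303 and 329 in B6 wild types. Probe set 1427989_at read 226, 209 and 282 in 129Sv knockouts, 146, 190.1 and 144 in 129Sv wild types, 309, 299 and 556 in B6 knockouts and 172, 163 and 152 in B6 wild types.

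In B6 the Amhr2 rises were 0.88 ± 0.14 (1.84-fold, adjusted p = 0.00304), 1.14 ± 0.17 (2.21-fold, adjusted p = 0.00143) and 1.19 ± 0.23 (2.29-fold, adjusted p = 0.00706) in that order, and all 3 held with each array left out. In a fit of the B6 arrays alone the third missed the threshold (adjusted p = 0.0536). Without B6 knockout replicate 3, the array of the highest Actb ratio and the highest Amhr2 readings, they were 0.80, 1.00 and 0.90, and all stayed past the threshold (adjusted p = 0.00845, 0.00306 and 0.00940). In 129Sv the differences were 0.50 ± 0.14, 0.48 ± 0.17 and 0.58 ± 0.23, which did not pass (adjusted p = 0.0604, 0.129 and 0.173). Over both strains the rises were 0.69 ± 0.10, 0.81 ± 0.12 and 0.89 ± 0.16 (adjusted p = 0.000556, 0.000523 and 0.00231), and they were the only member calls of the average effect that stayed with a title number of 11 as a covariate. The knockout effect of Amhr2 was not shown to differ between strains (unadjusted p 0.0147 to 0.0898, adjusted p 0.250 to 0.434).

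Between knockouts Amhr2 was lower in 129Sv than in B6 on all 3 probe sets. The differences were -0.43 ± 0.14 (adjusted p = 0.0378) on 1457021_x_at, -0.68 ± 0.17 (adjusted p = 0.00882) on 1438967_x_at and -0.65 ± 0.23 (adjusted p = 0.0427) on 1427989_at. The call of 1438967_x_at held with each array left out, while those of 1457021_x_at and 1427989_at were lost without any one of 6 and 8 arrays, B6 knockout replicate 3 among them (-0.35 and -0.36 without it, adjusted p = 0.100 and 0.144). Both were also lost without both arrays of the highest Actb ratio (-0.42 and -0.32, adjusted p = 0.0773 and 0.247). Among wild types, differences of -0.06 ± 0.14, -0.01 ± 0.17 and -0.03 ± 0.23 on these probe sets missed the threshold. The sum of the Sertoli markers was lower in the knockouts of both strains, where Amhr2 read higher, but the single markers did not all read lower. They ran from -1.20 to 0.17 in the 129Sv knockout (median -0.24) and from -1.35 to 0.45 in the B6 knockout (median -0.30). All 4 Leydig markers read lower in 129Sv than in B6 knockouts, 3 of them called, as Amhr2 did. The 1 of 6 Sertoli markers called as lower there was Amh, the ligand of AMHR2. The 6 Sertoli markers had a median of -0.03 and ran from -1.01 to 0.56. Against their wild types, the 4 Leydig markers read lower in 129Sv knockouts (-0.29 to -0.22), where Amhr2 read higher. In B6 knockouts they read higher (0.14 to 0.48), and none was called in either strain.

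**Figure D3:**
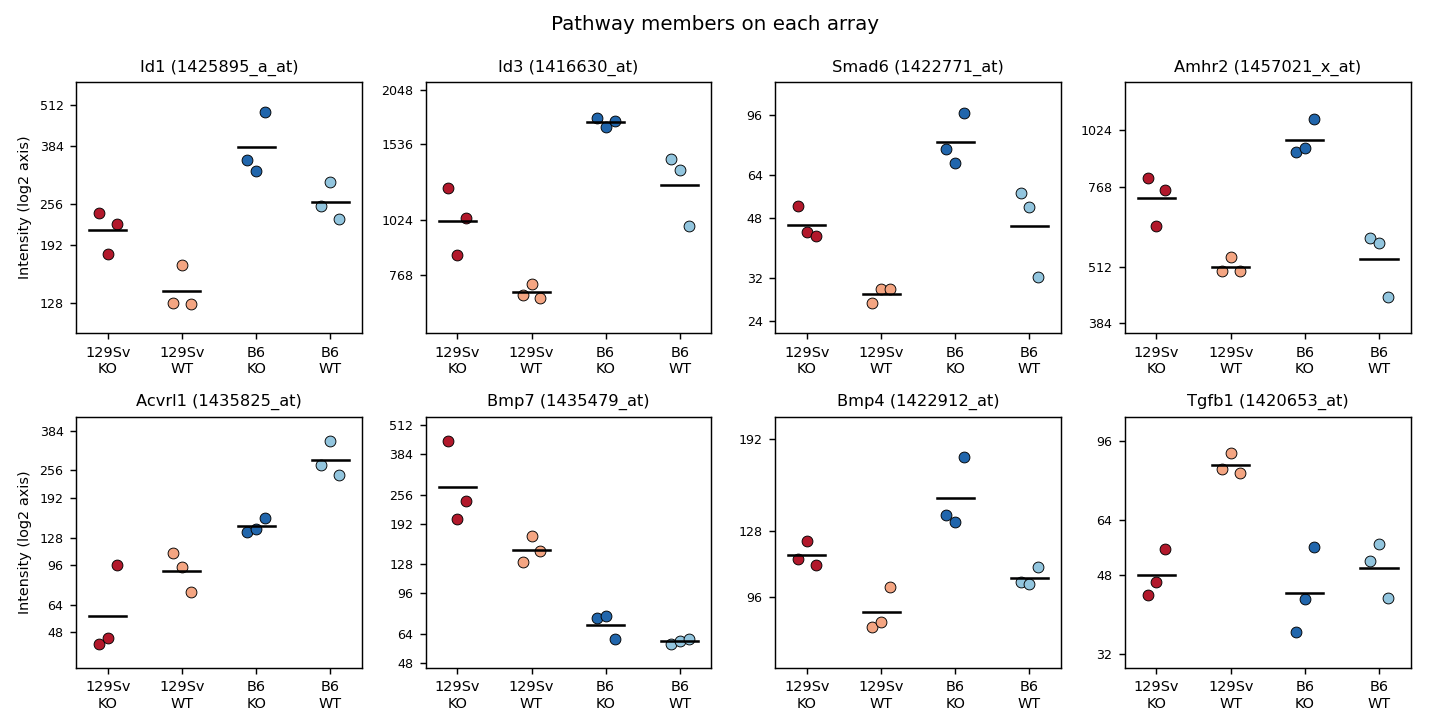
Intensity of 8 member probe sets on each of the 12 arrays, on a log2 axis, with knockouts left of wild types and a bar at the geometric mean of each group of 3. Id1, Id3, Smad6, Amhr2 and Bmp4 lie higher in the knockouts of both strains, with no overlap between knockout and wild-type arrays within a strain. Within a single strain, knockout arrays lay above all wild types for 3040 of all 21900 tested probe sets in 129Sv and 2638 in B6. Bmp7 is higher in 129Sv than in B6, and Acvrl1 is lower.

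Acvrl1, a type I receptor of vascular endothelium also called ALK1, fell with the knockout over both strains and was lower in 129Sv. Probe set 1435825_at read 42.5, 45.3 and 96.7 in 129Sv knockouts and 109, 94.0 and 72.8 in 129Sv wild types. It read 136, 139 and 157 in B6 knockouts and 270.5, 348 and 244 in B6 wild types. The knockout arrays lay below the wild types in B6, while in 129Sv knockout replicate 3 fell within the wild-type range. The average knockout effect was -0.83 ± 0.20 (adjusted p = 0.0148), with -0.67 ± 0.28 in 129Sv (adjusted p = 0.208) and -0.98 ± 0.28 in B6 (adjusted p = 0.0570). The B6 difference passed with the shared title number as a random block (-0.995, adjusted p = 0.0458). The average effect held with each array left out (-1.02 to -0.72). The strain difference was -1.33 ± 0.28 between knockouts (2.51-fold, adjusted p = 0.00300) and -1.65 ± 0.28 between wild types (3.13-fold, adjusted p = 0.00156), and both calls held with each array left out.

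The second Acvrl1 probe set, 1451604_a_at, read 17.5, 15.2 and 34.2 in 129Sv knockouts, 34.3, 42.3 and 31.9 in 129Sv wild types, 42.8, 33.8 and 72.2 in B6 knockouts and 65.9, 73.6 and 61.2 in B6 wild types. It was called only between knockouts (-1.17 ± 0.31, adjusted p = 0.0123), and that call was lost without 129Sv knockout replicate 2 (-0.94, adjusted p = 0.0570). It was also lost without both arrays of the highest Actb ratio (-0.73, adjusted p = 0.101), with array weights (-0.62, adjusted p = 0.0514) and in a fit of the knockouts alone (adjusted p = 0.0533). Its average knockout effect of -0.64 ± 0.22 did not pass (adjusted p = 0.0858). Of the 5 endothelial markers none was called for the average knockout effect or between wild types, where the median marker difference was -0.11 and -0.08. Within strains their median knockout difference was -0.32 in 129Sv and 0.11 in B6, while Acvrl1 read lower in the knockouts of both. Between knockouts 3 of the 5 were called as lower in 129Sv, as Acvrl1 was, with a median of -0.66. The part of the endothelial markers in the Acvrl1 differences was not tested.

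Acvr1, a type I receptor for BMPs and activins, read 303, 205 and 212 in 129Sv knockouts, 146, 172 and 157 in 129Sv wild types, 348, 248 and 373 in B6 knockouts and 289.5, 231 and 226 in B6 wild types on probe set 1448460_at. Its average knockout effect rose by 0.47 ± 0.14 (adjusted p = 0.0459), and the call was kept only without 129Sv knockout replicate 2, B6 knockout replicate 2 or B6 wild-type replicate 1 (otherwise 0.38 to 0.51, adjusted p 0.0507 to 0.124). It was 0.33 without both arrays of the highest Actb ratio (adjusted p = 0.152). Between wild types it was lower in 129Sv (-0.65 ± 0.20, adjusted p = 0.0432), which was lost without 129Sv knockout replicate 3 or any wild type (-0.71 to -0.54, adjusted p 0.0516 to 0.169). The other Acvr1 probe set, 1416786_at, gave 0.09 ± 0.22 for the knockout over both strains and -0.53 ± 0.31 between wild types, and was not called.

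Bmpr1a, the type I receptor of BMP2 and BMP4, was lower in 129Sv on 1 of its 5 tested probe sets. Probe set 1425492_at read 1264, 1294 and 1247 in 129Sv knockouts, 1348, 1313 and 1309 in 129Sv wild types, 1862, 1823 and 1551 in B6 knockouts and 1878, 2017 and 1898 in B6 wild types. All 129Sv arrays lay below all B6 arrays, at -0.46 ± 0.10 between knockouts (adjusted p = 0.00315) and -0.54 ± 0.10 between wild types (adjusted p = 0.00214), and both calls held with each array left out. The probe sets of this gene disagreed in direction between knockouts. There 1425491_at read 108, 167 and 121 in 129Sv and 117, 124 and 132 in B6 (0.06 ± 0.18), 1425493_at gave -0.09 ± 0.12, 1425494_s_at gave 0.23 ± 0.14 and 1451729_at gave -0.61 ± 0.27, and none of these 4 passed. Between wild types all 5 were lower in 129Sv (-0.20 to -0.72), with the one call. The remaining receptors, Bmpr1b, Bmpr2, Acvr1b, Acvr2a, Acvr2b, Tgfbr1, Tgfbr2 and Tgfbr3, were called in no comparison.

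Among the 15 SMAD probe sets, the inhibitory Smad6 rose with the knockout over both strains, and 5 SMAD genes were lower in 129Sv than in B6 knockouts. The calls between knockouts are 33.3% of the SMAD probe sets, near the 30.8% of all tested probe sets (12.2% lower). Smad6 (1422771_at) read 52.1, 43.7 and 42.6 in 129Sv knockouts and 27.1, 29.8 and 29.7 in 129Sv wild types. It read 76.5, 69.5 and 97.6 in B6 knockouts and 56.8, 51.8 and 32.2 in B6 wild types. Knockout arrays lay above wild-type arrays in both strains. The average effect was 0.74 ± 0.16 (1.67-fold, adjusted p = 0.00779) and held with each array left out, with 0.67 ± 0.22 in 129Sv (adjusted p = 0.110) and 0.82 ± 0.22 in B6 (adjusted p = 0.0521). With the shared title number as a random block the B6 rise passed (0.79, adjusted p = 0.0498). It was lower in 129Sv between knockouts (-0.81 ± 0.22, adjusted p = 0.0156), lost without 129Sv knockout replicate 3 (-0.75, adjusted p = 0.0581), and did not pass between wild types (-0.66 ± 0.22, adjusted p = 0.0671).

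The other SMAD calls were all between knockouts, where each gene read lower in 129Sv. Smad1 (1448208_at) read 705, 717 and 553 in 129Sv and 946, 885 and 1025 in B6 (-0.54 ± 0.14, adjusted p = 0.0105). Smad5 (1433641_at) read 1027, 899 and 861 in 129Sv and 1282, 1321 and 1068 in B6 (-0.40 ± 0.13, adjusted p = 0.0334). These groups did not overlap, and the wild types of these 2 probe sets read 589 to 773 for Smad1 and 915 to 983 for Smad5 in 129Sv, and 779 to 886 and 1095 to 1416 in B6. Smad3 (1454960_at) read 2066, 1885 and 1918 in 129Sv knockouts and 2244, 2485 and 2520.0 in B6 knockouts (-0.30 ± 0.10, adjusted p = 0.0391), with wild types at 2090 to 2107 in 129Sv and 1855 to 2432 in B6. Smad7, which like Smad6 encodes an inhibitory SMAD (1423389_at), read 405, 559 and 550.0 in 129Sv knockouts and 792, 748 and 620.2 in B6 knockouts (-0.52 ± 0.17, adjusted p = 0.0341). Its wild types read 540.4 to 728 in 129Sv and 698 to 935 in B6. None of these 4 genes was called for the knockout or between wild types.

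The other probe sets of these SMAD genes did not share the call between knockouts. For Smad1, 1416081_at read 27.7, 21.6 and 20.6 in 129Sv and 23.1, 17.1 and 11.5 in B6 (0.48 ± 0.25), and 1459843_s_at gave -0.13 ± 0.12. For Smad5, 1421047_at gave 0.09 ± 0.49 and 1451873_a_at gave 0.10 ± 0.15, both opposite in sign to the called one. The second Smad7 probe set gave -0.13 ± 0.14. The Smad1 call was lost without 129Sv knockout replicate 3 (-0.42, adjusted p = 0.0550), and the Smad5 call without 129Sv knockout replicate 2 or 3 or B6 knockout replicate 1 or 2 (-0.37 to -0.34, adjusted p up to 0.117). The Smad7 call was lost without 129Sv knockout replicate 1 or B6 knockout replicate 1 or 2 (-0.49 to -0.37, adjusted p up to 0.135), and the Smad3 call was kept only without 129Sv knockout replicate 1, 129Sv wild-type replicate 2, B6 knockout replicate 1 or B6 wild-type replicate 1 or 2 (otherwise adjusted p up to 0.105). Smad2 and Smad4 were called in no comparison.

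No antagonist was called in any comparison, and only Fst, Chrd and Bambi had a tested probe set. Bambi, a membrane decoy receptor without a kinase domain, read 1411, 1219 and 1157 in 129Sv knockouts, 1205, 1688 and 1187 in 129Sv wild types, 1608, 1564 and 1599 in B6 knockouts and 1773, 1365 and 1200.0 in B6 wild types. Its knockout difference was -0.09 ± 0.16 in 129Sv (95% interval -0.43 to 0.25) and 0.16 ± 0.16 in B6 (-0.18 to 0.50). Across these 3 probe sets the knockout differences ran from -0.34 to 0.38 in 129Sv and from -0.66 to 0.69 in B6, and none passed.

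The ID genes, which encode helix-loop-helix inhibitors of differentiation induced by BMP signals, were the role group in which every probe set read higher in 129Sv knockouts. All 4 of their probe sets had the 129Sv knockout arrays above the 129Sv wild types, where 13.9% of all tested probe sets did. Over all 63 members, 25 had no overlap between knockout and wild type in 129Sv (27.2% of all probe sets) and 15 in B6 (25.6%). Id3 (1416630_at) read 1213, 851 and 1035 in 129Sv knockouts and 689, 730.3 and 680.2 in 129Sv wild types. It read 1765, 1676 and 1738 in B6 knockouts and 1419, 1336 and 992 in B6 wild types. Knockouts lay above wild types in both strains. Id3 rose in 129Sv by 0.55 ± 0.15 (1.46-fold, adjusted p = 0.0465), with 0.48 ± 0.15 in B6 (adjusted p = 0.0799) and 0.52 ± 0.11 over both (1.43-fold, adjusted p = 0.00576). The average held with each array left out. The call in 129Sv was kept only without 129Sv knockout replicate 2, B6 knockout replicate 3 or B6 wild-type replicate 1 or 3 (otherwise 0.42 to 0.58, adjusted p 0.0576 to 0.202), and was 0.42 without both arrays of the highest Actb ratio (adjusted p = 0.139).

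Id1 (1425895_a_at) showed a similar difference in both strains. It read 240.5, 181 and 223 in 129Sv knockouts and 128, 167 and 128 in 129Sv wild types. It read 349.6, 324 and 489 in B6 knockouts and 253, 300.0 and 231 in B6 wild types. All knockout arrays lay above the wild types of their strain. The difference was 0.61 ± 0.19 in 129Sv (adjusted p = 0.0904) and 0.55 ± 0.19 in B6 (adjusted p = 0.119), and over both it rose by 0.58 ± 0.14 (1.5-fold, adjusted p = 0.0141), a call that held with each array left out. With a title number of 11 as a covariate, which nearly follows genotype in 129Sv, the average effect missed the threshold for Id1 (0.45, adjusted p = 0.153) and Id3 (0.48, adjusted p = 0.0538). The same held for Smad6 (0.72, adjusted p = 0.0617) and Acvrl1 probe set 1435825_at (-0.85, adjusted p = 0.0752).

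Id2 did not follow this pattern in B6. Probe set 1435176_a_at read 2616, 3147 and 2257 in 129Sv knockouts and 1960.0, 1656 and 2012 in 129Sv wild types, against 3349, 2878 and 3137 in B6 knockouts and 3783, 3413 and 2535 in B6 wild types. Probe set 1422537_a_at read 364, 457 and 431 in 129Sv knockouts, 278, 198 and 332 in 129Sv wild types, 483, 404 and 290.1 in B6 knockouts and 545, 669.8 and 338 in B6 wild types. The groups were apart in 129Sv and overlapped in B6 on both probe sets. The differences were 0.50 ± 0.15 and 0.66 ± 0.26 in 129Sv (adjusted p = 0.0723 and 0.182) and -0.04 ± 0.15 and -0.38 ± 0.26 in B6 (adjusted p = 0.901 and 0.398). The difference of the effects was 0.54 ± 0.21 and 1.03 ± 0.37, at unadjusted p of 0.0241 and 0.0140, and it did not pass adjustment (0.291 and 0.246).

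All 4 ID probe sets were lower in 129Sv wild types than in B6 wild types, and none of their arrays overlapped, where 15.3% of all probe sets lay below without overlap. The differences were -0.90 ± 0.19 for Id1 (1.86-fold, adjusted p = 0.00779), -0.82 ± 0.15 for Id3 (1.76-fold, adjusted p = 0.00265), and -0.78 ± 0.15 and -0.92 ± 0.26 for Id2 (adjusted p = 0.00427 and 0.0310). All held with each array left out except that of Id2 probe set 1422537_a_at, which was lost without replicate 1 or 2 of either wild type (-0.96 to -0.70, adjusted p 0.0638 to 0.148). With a title number of 11 as a covariate the Id1 difference was -0.64 and missed the threshold (adjusted p = 0.148). Between knockouts Id1 and Id3 were again lower in 129Sv, at -0.84 ± 0.19 (adjusted p = 0.00566) and -0.76 ± 0.15 (adjusted p = 0.00206), while Id2 was not called (-0.23 ± 0.15 and 0.12 ± 0.26). Id4, the family member outside the list, was higher in 129Sv than in B6 knockouts on 1 of its 3 probe sets (0.67 ± 0.20, adjusted p = 0.0196). This is the opposite direction to Id1 and Id3, and the other Id4 probe sets were not called.

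**Figure D4:**
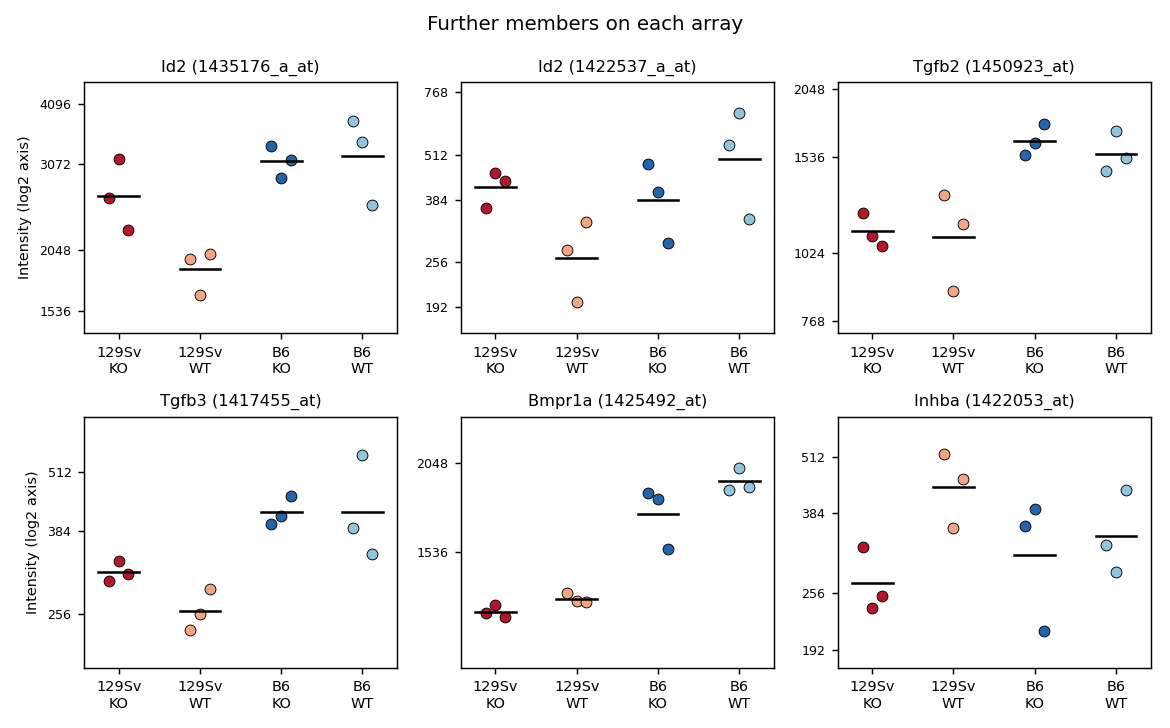
Intensity of 6 further member probe sets on each of the 12 arrays, on a log2 axis, with knockouts left of wild types and a bar at the geometric mean of each group of 3. Both Id2 probe sets are higher in knockouts than in wild types in 129Sv and overlap in B6, Tgfb2 and Bmpr1a lie lower in all 129Sv arrays than in all B6 arrays, and Inhba did not pass in any comparison.

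The wider pathway was read from a list of 51 further genes, of which 43 had a probe set of their own and 31 were tested with 51 probe sets. In the 129Sv knockout 5 of these probe sets rose and 2 fell, in the B6 knockout 2 rose and 1 fell, and none was called for the difference of the effects. These are 13.7% of the list in 129Sv, where 5.74% of all probe sets were called, and 5.88% in B6, near the 5.02% of all. The list was written with earlier results of these data known, so its shares are not independent of these values. The lower group averaged under 16 in 3 of the 7 calls in 129Sv and 1 of the 3 in B6, and a probe set that met the filter on low values through its higher group had to differ. Nodal, an activin-like ligand of pluripotent and early germ cells, read 112, 139 and 151 in 129Sv knockouts and 25.5, 36.0 and 24.2 in 129Sv wild types, and 59.6, 65.8 and 60.5 in B6 knockouts and 19.1, 31.1 and 17.1 in B6 wild types. It rose by 2.24 ± 0.24 in 129Sv (4.74-fold, adjusted p = 8.33e-05) and by 1.52 ± 0.24 in B6 (2.86-fold, adjusted p = 0.00236). Gdf3, a related ligand of pluripotent cells, read 258, 270.0 and 199 in 129Sv knockouts on probe set 1449288_at, against 22.6 and 18.6 in 129Sv wild-type replicates 1 and 2 and a value under 16 in replicate 3, and 95.1, 84.8 and 28.0 in B6 knockouts and 18.3, 31.4 and 15.8 in B6 wild types. It rose by 3.69 ± 0.39 in 129Sv (adjusted p = 7.89e-05) and by 1.55 ± 0.39 in B6 (adjusted p = 0.0359), where B6 knockout replicate 3 lay within the range of its wild types. Its other probe set, 1460057_at, reached 16 only in the 129Sv knockouts, which let it into the test, so its calls add no support. It read 29.7, 24.1 and 17.4 there, against 6.70, 5.22 and 5.02 in 129Sv wild types, and 11.4, 8.49 and 8.96 in B6 knockouts, against 5.71, 5.85 and 4.55 in B6 wild types.

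The homeobox genes Tgif1, a repressor that binds SMADs, and Msx1, a BMP target, rose in 129Sv, Tgif1 by 0.85 ± 0.15 (adjusted p = 0.00403) and Msx1 at least 1.32-fold (adjusted p = 0.0214). Msx2, also a BMP target, fell (at least 1.49-fold lower, adjusted p = 0.0152), as did Inhbb, the beta subunit of activin B (-0.42 ± 0.11, adjusted p = 0.0490). In B6 the antagonist Chrdl1 fell (at least 1.17-fold lower, adjusted p = 0.0224). For these calls of Msx1, Msx2 and Chrdl1 the lower group averaged under 16. Where such a probe set met the filter only through its higher group, its call adds no support. Other probe sets of Nodal, Msx1, Msx2, Inhbb and Chrdl1 were not called in the same comparison. The average knockout effect was called for 8 of these probe sets (15.7%, where 10.5% of all were called), 6 higher (2 for Gdf3, Nodal, Tgif1, Msx1 and Smurf1, a ubiquitin ligase for SMADs, at 0.83 ± 0.22 on 1 of its 2 probe sets) and 2 lower (Chrdl1 and Msx2). The 8 include Gdf3 probe set 1460057_at, which met the filter only through the 129Sv knockouts, so its call adds no support. The limit stated for Msx1, Msx2 and Chrdl1 can apply here too.

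Between strains the wider list split in both directions. In knockouts 10 of its 51 probe sets were higher in 129Sv and 14 were lower, which is 47.1% of the list, where 30.8% of all probe sets were called. In 4 of these 24 the lower group averaged under 16. Higher were Gdf3 (1.98 ± 0.39, and the probe set that met the filter through these knockouts), Nodal (1.10 ± 0.24), Chrdl1 (at least 1.98-fold and 2.93-fold), Skil (0.76 ± 0.18), Tgif1 (0.67 ± 0.15), Id4, Smurf1 (0.41 ± 0.14) and Smurf2 (0.55 ± 0.19). Lower were the ligand Gdf10 (-1.91 ± 0.34), Amh (-1.01 ± 0.27) and Inhbb (-0.50 ± 0.11). So were 2 of the 3 probe sets of Bmp1 (-0.94 and -0.89) and both of Eng, the endothelial co-receptor of Acvrl1 (-0.71 and -1.02). Also lower were 3 probe sets of Ltbp3 (-0.74, -0.48 and at least 2.30-fold lower), Ltbp4 (-0.42), Fstl3 (-0.55), Twsg1 (-0.39) and Tgfbi (-0.76). Nodal, Skil, Id4, Smurf1, Smurf2, Inhbb, Twsg1 and Tgfbi were each called here on 1 probe set, and their other probe sets were not called. Amh, the ligand of AMHR2, read 119, 134 and 182 in 129Sv knockouts, 198, 136 and 176 in 129Sv wild types, 252, 266 and 354 in B6 knockouts and 219.6, 312 and 135 in B6 wild types, and was called for the knockout in neither strain. Between wild types 13.7% of the list was called, near the 14.1% of all, and 4 were higher in 129Sv (2 for Chrdl1 at 1.35 and 1.08, Msx2 at least 1.49-fold and Skil at 0.58) and 3 were lower (Gdf10 at -1.48, Bmper at -0.92 and Fstl3 at -0.78). For Msx2 the B6 wild types averaged under 16, so the limit of the filter can apply to this call too. Other probe sets of Chrdl1, Msx2 and Skil were not called there.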

How the data were processed

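Testes at E15.5 were measured on 12 Affymetrix arrays, and the deposited values are intensities per probe set that the authors made with GCRMA (background correction by probe sequence, quantile normalisation and summary of probes), per the submitters' processing notes, which give no version. The deposited intensity was linear (lowest value 1.4, array medians 17.3 to 19.0), so log2 was taken here. Groups and replicate numbers came from the sample descriptions. Gene names came from the platform annotation, and of 45101 the 34958 with 1 gene were used, less 13 controls. Probe sets with an intensity of at least 16 (log2 of 4) on at least 3 arrays were tested.

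A model of 4 group means over all 12 arrays was fitted with limma 3.58.1 in R 4.3.3 (lmFit, eBayes with trend, 8 residual and 5.80 prior degrees of freedom), with Benjamini-Hochberg adjustment over 21900 probe sets and a threshold of 0.05. The script was tested on simulated data. Members called in any of the 6 contrasts are named with values per array, with genes whose probe sets disagree, and other members by counts. Members, lists and this rule were chosen with earlier results of these data known. A fold against a group mean under 16 is computed against 16 and given as "at least". Probe names ending in _x_at or _s_at can match related transcripts. Array number, 3 per group, limits the precision. Replicate numbers did not pair the arrays, and a number of unstated meaning that 2 pairs of B6 arrays share in their titles was tried as a random block. Alternatives were other filters, 1 probe set per gene, quantile normalisation, a floor, no trend, array weights, the Actb ratio or a title number of 11 as covariate, only the groups compared, blocks, and each array left out. Figures were drawn with matplotlib 3.10.9.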

Additional observations from a re-analysis of the deposited data

How the results depend on the processing

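Of the 50 member calls in 6 contrasts, 26 held with each array left out in turn and none reversed under any alternative run. Counts of called member probe sets ranged, with 1 array left out, from 0 to 8 for the knockout in 129Sv (3 in the fit of all arrays), 3 to 4 in B6 (3), 7 to 13 for the average effect (11), 13 to 18 for strain between knockouts (18) and 8 to 20 between wild types (15), and were 0 throughout for the difference of effects. In 129Sv the count was 0 without knockout replicate 1 or any wild type, 1 without B6 knockout replicate 1 or 2 or B6 wild-type replicate 2, and 8 without B6 knockout replicate 3. The average effect had 7 calls without 129Sv knockout replicate 1, 129Sv wild-type replicate 1 or B6 wild-type replicate 2. For strain between wild types there were 8 calls without 129Sv or B6 wild-type replicate 2, and 9 without replicate 1 of either. Array weights gave 12 calls in 129Sv, 8 in B6, 17 for the average and 25 between wild types, with 2970, 4236, 5160 and 5641 over all probe sets against 1258, 1099, 2297 and 3095. A title number of 11 as a covariate gave 0 calls in 129Sv and 3 for the average (295 and 1186 over all), and the Actb ratio gave 7 in 129Sv (1916 over all) and 3 in B6 (702). A fit of only the groups compared gave 6 in 129Sv, 3 in B6 with 372 over all, and 11 between knockouts (4386 over all). No filter gave 1 in 129Sv, and the first title number as a random block gave 5 in B6, with Smad6 and Acvrl1 besides the 3 for Amhr2. With 1 array left out, counts over all probe sets ranged from 605 to 1966 in 129Sv, 425 to 1637 in B6, 1490 to 2635 for the average, and 1513 to 4506 between wild types. With 1 probe set per gene, which tests fewer, 4345 and 2054 were called between knockouts (6743 in the fit of all arrays) and wild types, and with the covariate 1824 between wild types. The filter at a log2 of 6 gave 836 over all in 129Sv. For the difference of effects, all probe sets called ranged from 16 to 1215 (73 in the fit of all arrays), with no member under any alternative. With both arrays of the highest Actb ratio left out, an alternative chosen after seeing the data, the counts were 2, 4, 11, 13 and 22 in the order above. Arrays of the same replicate number did not deviate together (r -0.51 to 0.23), and 2 of 12 correlated best with their own number; with the replicate block the counts were 1, 3, 8, 13 and 12, and 13 of the 50 calls were not kept. The number of arrays limits what smaller changes can be resolved.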
